A study of Homo sapiens with 4 samples.

Results

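The miR-191 and miR-425 cluster consists of 2 microRNA genes, MIR191 and MIR425, that lie side by side on human chromosome 3 and are made from one transcript in the DALRD3 gene. Its 4 mature products, miR-191, miR-425 and their opposite arms miR-191* and miR-425*, were taken by their miRBase accessions (MIMAT0000440, MIMAT0003393, MIMAT0001618 and MIMAT0001343) from a table of 856 features. They were measured in 4 established human oesophageal squamous cell carcinoma lines, KYSE-520, KYSE-450, KYSE-890 and KYSE-960, grown without any treatment in medium with 5% serum at 37 °C and 5% CO2. Total RNA of each line, 500 ng labelled with the dye Hy5, was hybridized to 1 one-colour array of human microRNA probes, so the spread between repeat arrays is unknown and no test was made. The lines are tumour cell lines with no normal tissue or control line beside them, and differences are written as the first-named line minus the second. Whether a difference in a line comes from more cells carrying a microRNA or from more of it per cell cannot be told apart in bulk RNA.

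A microRNA gene is first transcribed as part of a long RNA. The enzyme Drosha cuts a hairpin out of it, Dicer trims the hairpin to a short duplex, and one strand is loaded into an Argonaute protein, where its seed near the 5′ end pairs with messenger RNAs and lowers their output. The strand that is usually kept is the guide, and the opposite arm, marked with a star in the older naming, is mostly degraded. miR-191 is present in many tissues and has often served as a reference microRNA in PCR assays, because its level tends to vary little. Both miR-191 and miR-425 have been described as raised in several carcinomas.

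Both hairpins lie on the minus strand inside the bounds of DALRD3, a protein-coding gene whose product takes part in transfer RNA methylation, at chr3:49015488-49021505 in RefSeq's GRCh38.p14. MIR191 occupies chr3:49020618-49020709 and also falls within the bounds of NDUFAF3, which encodes an assembly factor of mitochondrial complex I, and MIR425 occupies chr3:49020148-49020234. The hairpins are 92 and 87 bases long and are 383 bases apart. They are shown, 5′ to 3′ and with the arms that RefSeq lists in capitals, because the 4 measured features are arms of these 2 structures.
MIR191: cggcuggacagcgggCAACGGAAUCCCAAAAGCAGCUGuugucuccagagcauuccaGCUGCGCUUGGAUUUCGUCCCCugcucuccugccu
MIR425: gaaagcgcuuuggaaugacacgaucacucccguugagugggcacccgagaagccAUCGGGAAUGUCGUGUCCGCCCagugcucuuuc
RefSeq's table held the mature sequence of 3 of the 4 members, which are given with the seed, bases 2 to 8, in capitals.
miR-191: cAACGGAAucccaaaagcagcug
miR-191*: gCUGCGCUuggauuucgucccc
miR-425*: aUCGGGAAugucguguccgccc
The 3 seeds differ from each other, and 0 of the 2369 other mature human names in that table share the seed of any one of them. The 2 star arms are the richer in G and C, with 63.6% each against 52.2% in miR-191, which equals the median of all mature entries.

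The guide arms of both hairpins gave signal in all 4 lines, and the star arms gave none above background in any. A feature counted as above background on an array when it reached that array's median plus 3 times the spread of the dim side, a threshold between 128.5 intensity units (KYSE-890) and 150.0 (KYSE-520). Of the 856 features, 75 passed on all 4 arrays, 163 on at least 1 and 693 on none. miR-191 and miR-425 were among the 75, and miR-191* and miR-425* among the 693. The arrays differed in brightness. Summed intensity was highest in KYSE-520, at 349156, and lowest in KYSE-960, at 180682, and the 75 features had a median of 1064 on the array of KYSE-520, 785.5 on that of KYSE-450, 322.5 on that of KYSE-890 and 320.0 on that of KYSE-960. How much of that brightness is RNA and how much is labelling or scanning was not tested, so the differences below are given in the deposited intensities and after quantile normalization, which forces the arrays into one common distribution.

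miR-191, the guide of the MIR191 hairpin, was bright in every line and varied little in the deposited values. KYSE-520 gave an intensity of 682, KYSE-450 gave 763, KYSE-890 gave 668 and KYSE-960 gave 448, which is 4.55, 5.53, 5.20 and 3.45 times the background threshold of each array. KYSE-520, KYSE-450 and KYSE-890 lay close together and KYSE-960 was the lowest. The span from lowest to highest was 1.70-fold, and 14 of the 73 other features above background on all arrays had a smaller one, their median span being 3.03-fold with quartiles of 1.81-fold and 7.51-fold. After subtraction of each array's median as an estimate of background the span was 1.85-fold, and 10 of the 73 others were smaller.

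miR-425, the guide of the second hairpin, separated the lines more than miR-191 in the deposited values and less after quantile normalization, where it spanned 2.15-fold against 4.39-fold. In the deposited values KYSE-520 gave an intensity of 385.5, KYSE-450 gave 473, KYSE-890 gave 230.5 and KYSE-960 gave 243.5. KYSE-520 and KYSE-450 were the brighter pair and KYSE-890 and KYSE-960 the dimmer, at 1.79 and 1.87 times their background thresholds against 2.57 and 3.43 times in KYSE-520 and KYSE-450. The deposited span was 2.05-fold, and 25 of the 73 other features spanned less. With the array medians subtracted it was 2.63-fold, and 21 of the 73 spanned less.

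**Figure D1:**
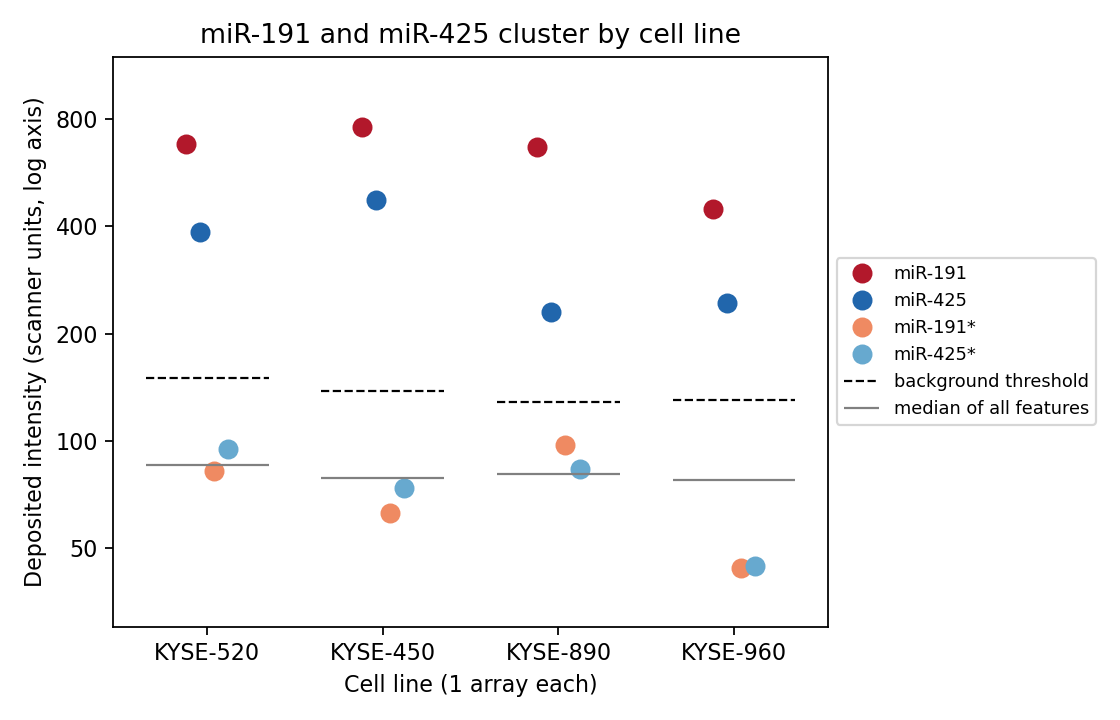
Deposited intensity (scanner units, log axis) of the 4 cluster members in each cell line, 1 array per line. Dashed lines mark each array's background threshold and grey lines the median of its 856 features. miR-191 and miR-425 lie above the threshold in all 4 lines, and both star arms lie under it in all 4, lowest in KYSE-960.

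The star arms sat within the background. For miR-191*, the opposite arm of miR-191, KYSE-520 gave 82, KYSE-450 gave 62.5, KYSE-890 gave 97.5 and KYSE-960 gave 44, where the array medians were 85.5, 78.8, 80.5 and 77.5. For miR-425*, the opposite arm of miR-425, the values were 95 (KYSE-520), 73.5 (KYSE-450), 83.5 (KYSE-890) and 44.5 (KYSE-960). The highest of these readings was 0.759 of its array's threshold, so no fold is given between lines for either arm. In KYSE-960 both were among the dimmest features of the array, at percentiles 2.45 and 2.75, whereas in the other lines they ranged from percentile 22.7 to 75.2. A reading under the threshold does not show that an arm is absent, and a probe's brightness cannot be set against another probe's to give a ratio of guide to star.

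Between KYSE-520 and KYSE-450, both guides were slightly lower in KYSE-520, while most other bright features were higher there in the deposited values. miR-191 differed by -0.16 log2 in the deposited values and -0.57 after quantile normalization, and miR-425 by -0.30 and -0.65. The median of the 73 other features was 0.41 log2 in the deposited values and 0 after normalization, and in the deposited values 63 of them had a larger difference than miR-191 and 66 a larger one than miR-425. Neither guide reached 2-fold in this pair under either scaling, where 0.982% of the 713 analysed features were at least 2-fold lower and 1.82% at least 2-fold higher in KYSE-520 after quantile normalization. The direction was the same in all 10 settings of scaling, floor, constant and filter, from -0.62 to -0.16 log2 for miR-191 and from -0.76 to -0.30 for miR-425. Both guides lay above every floor, so the settings that changed only the floor or the filter returned the quantile-normalized values and could not alter the direction.

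KYSE-520 and KYSE-450 against KYSE-890 and KYSE-960 gave differences whose direction turned with the scaling. In KYSE-520 minus KYSE-890, miR-191 differed by 0.03 log2 in the deposited values and by -2.14 after quantile normalization. In KYSE-520 minus KYSE-960 these values were 0.61 and -1.81, in KYSE-450 minus KYSE-890 0.19 and -1.57, and in KYSE-450 minus KYSE-960 0.77 and -1.24. The normalized intensity of miR-191 was 411 for KYSE-520, 608.5 for KYSE-450, 1804 for KYSE-890 and 1438.5 for KYSE-960, a 4.39-fold span that exceeded those of 50 of the 73 other features. The deposited values thus put the 4 lines close together for miR-191, and the normalized values put it at least 2-fold lower in each of KYSE-520 and KYSE-450 than in each of KYSE-890 and KYSE-960. Quantile normalization sets each value by the rank of the feature on its array, and miR-191 had rank 58 of 856 by brightness in KYSE-520 and rank 47 in KYSE-450, against rank 19 in KYSE-890 and rank 22 in KYSE-960.

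miR-425 turned in the same way but less far. In KYSE-520 minus KYSE-890 it differed by 0.74 log2 in the deposited values and -0.76 after quantile normalization, and in KYSE-520 minus KYSE-960 by 0.66 and -1.10. In KYSE-450 minus KYSE-890 it differed by 1.04 and -0.11, and in KYSE-450 minus KYSE-960 by 0.96 and -0.46. Its normalized intensity was 233 for KYSE-520, 365 for KYSE-450, 395 for KYSE-890 and 501 for KYSE-960, a span of 2.15-fold. KYSE-520 was then the lowest of the lines for both guides, a place held by KYSE-960 for miR-191 and KYSE-890 for miR-425 in the deposited values.

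After quantile normalization, the count of the 2 guides that were at least 2-fold lower was 1 in KYSE-520 against KYSE-890, where 5.47% of the 713 features were, and 2 in KYSE-520 against KYSE-960, where 6.17% were. It was 1 in KYSE-450 against KYSE-890 (5.75% of features) and 1 in KYSE-450 against KYSE-960 (5.61%). None was at least 2-fold higher in these pairs, where 6.45%, 6.03%, 5.05% and 5.61% of features were. In the deposited values a single difference reached 2-fold, that of miR-425, which was higher in KYSE-450 relative to KYSE-890, a pair in which 9.82% of features differed by 2-fold in either direction. In the pairs with no such guide that share was 5.05% for KYSE-520 with KYSE-450, 13.3% for KYSE-520 with KYSE-890, 13.6% for KYSE-520 with KYSE-960, 8.98% for KYSE-450 with KYSE-960 and 1.68% for KYSE-890 with KYSE-960. Most of the 713 features were below background on every array, so these shares are not those of features as bright as the guides. The median deposited difference of the 73 other features above background on all arrays was 1.04 log2 in KYSE-520 minus KYSE-890 and 1.03 in KYSE-520 minus KYSE-960, both past 2-fold. It was 0.67 in KYSE-450 minus KYSE-890, 0.86 in KYSE-450 minus KYSE-960, 0.41 in KYSE-520 minus KYSE-450 and 0.18 in KYSE-890 minus KYSE-960. With 2 guides measured, the counts of guides describe the 2 features and nothing wider.

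**Figure D2:**
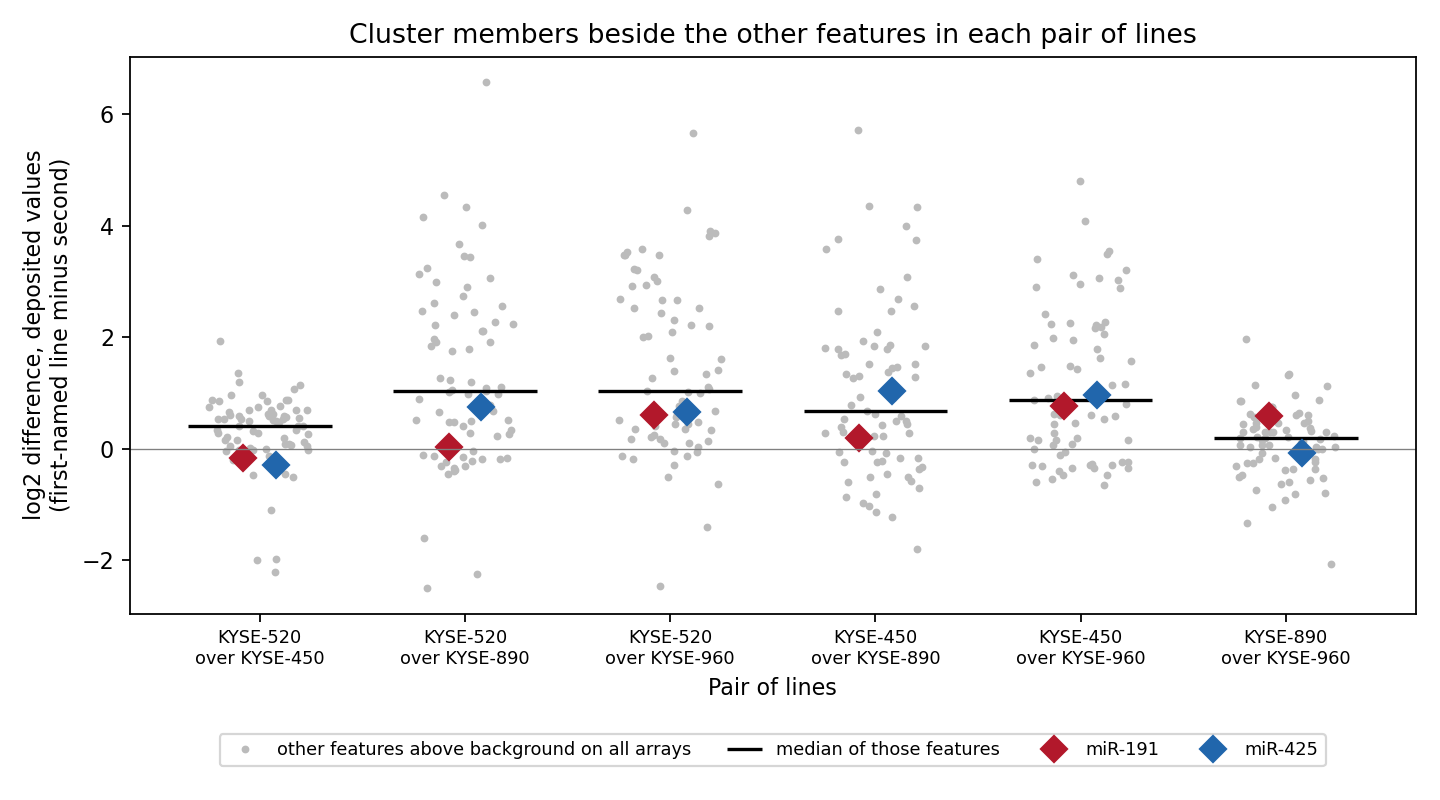
Log2 difference of deposited intensities (first-named line minus second) in each pair of lines for miR-191 and miR-425 (diamonds) and for the 73 other features above background on all 4 arrays (grey points, with their median as a line). In KYSE-520 over KYSE-450 both guides lie under the median and just under 0, and in KYSE-520 over KYSE-890 miR-191 lies at 0.03 where the median is 1.04.

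Set against the other bright features, which cancels any single factor per array, miR-191 in KYSE-520 lay under their middle. Its deposited difference minus the median of the 73 other features was -1.01 log2 in KYSE-520 minus KYSE-890, with 55 of them larger, and -0.42 in KYSE-520 minus KYSE-960, with 45 larger. In KYSE-450 it was -0.48 against KYSE-890, with 50 larger, and -0.09 against KYSE-960, with 38 larger. The same quantity for miR-425 was -0.30 in KYSE-520 minus KYSE-890 and -0.37 in KYSE-520 minus KYSE-960, and 0.37 and 0.10 in KYSE-450 minus KYSE-890 and minus KYSE-960. After quantile normalization these differences from the median were -1.53, -1.17, -1.12 and -0.77 log2 for miR-191 and -0.15, -0.47, 0.33 and 0.01 for miR-425, in the same order of pairs. Under both scalings miR-191 was under the median in all 4 pairs, while miR-425 was under it in KYSE-520 and above it in KYSE-450. In KYSE-450 minus KYSE-960 miR-425 lay near the median, with 33 of the 73 larger in the deposited values and 35 after quantile normalization. miR-191 was also near it there in the deposited values.

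Between KYSE-890 and KYSE-960, the differences of the 2 guides had opposite signs, but miR-425 was nearly equal in the deposited values. miR-191 was higher in KYSE-890 by 0.58 log2 in the deposited values and 0.33 after quantile normalization, with a median of 0.18 for the other features in the deposited values. miR-425 differed by -0.08 and -0.34. Its deposited intensities were 230.5 in KYSE-890 and 243.5 in KYSE-960, at 1.79 and 1.87 times the background thresholds, each from a single array. Both directions held in all 10 settings, from 0.32 to 0.67 log2 for miR-191 and from -0.34 to -0.03 for miR-425. Here too the settings that changed only the floor or the filter returned the quantile-normalized values. Neither passed 2-fold, which 1.96% of features did upwards and 3.09% downwards after quantile normalization.

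**Figure D3:**
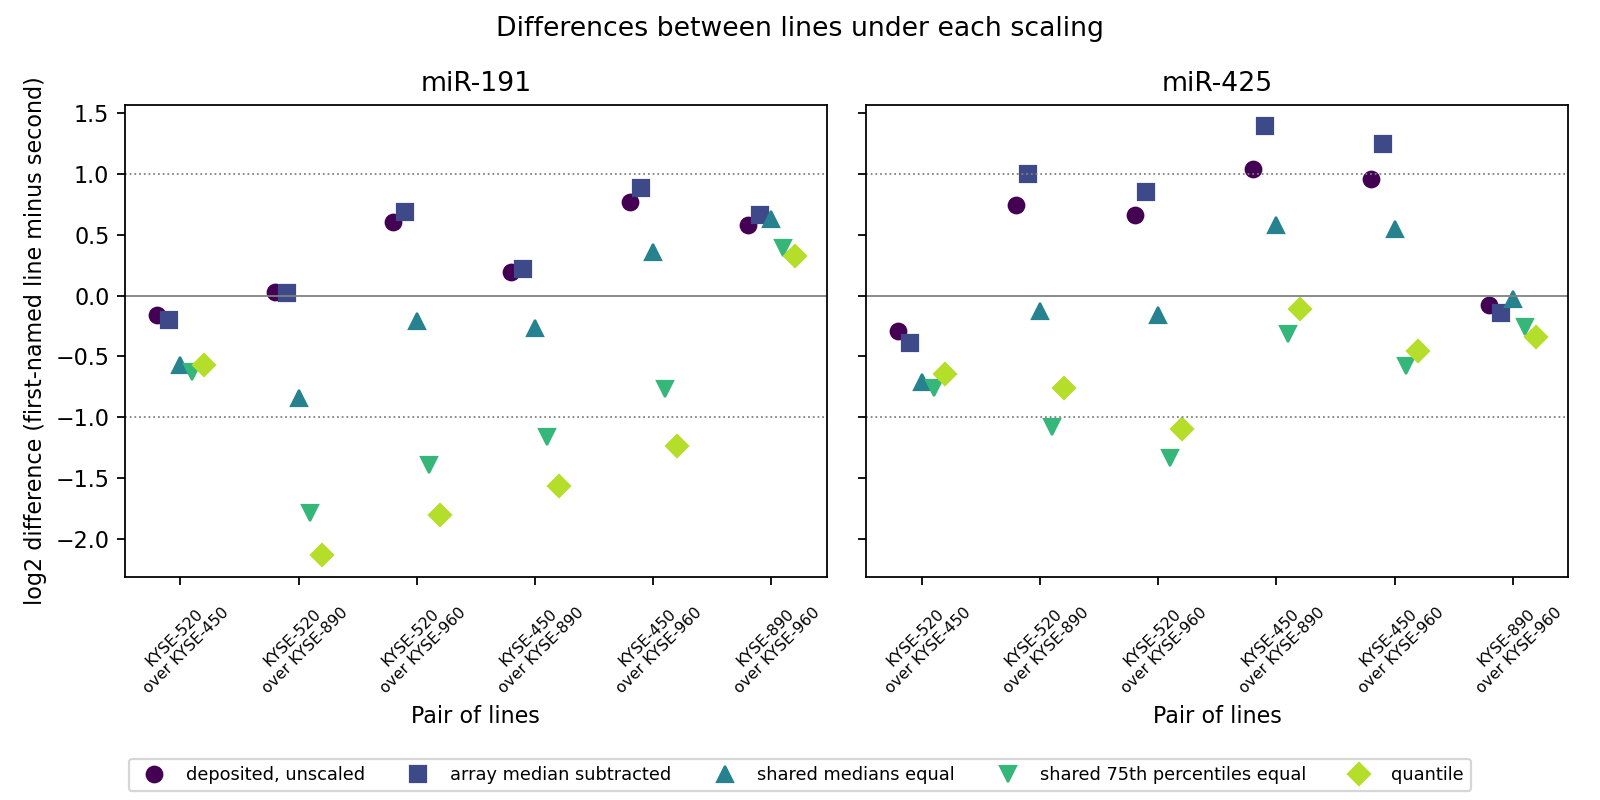
Log2 difference (first-named line minus second) of miR-191 and miR-425 in the 6 pairs of lines under 5 ways of scaling the arrays. Dotted lines mark 2-fold. In KYSE-520 over KYSE-450 and KYSE-890 over KYSE-960 each guide keeps its side of 0, while in the other 4 pairs it crosses 0 with the scaling.

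The relation of miR-191 to miR-425 within an array sets 2 products of one transcript side by side. A factor that multiplies the whole array drops out of it, while background added to both readings does not. The log2 ratio of the 2 deposited intensities was 0.82 (KYSE-520), 0.69 (KYSE-450), 1.54 (KYSE-890) and 0.88 (KYSE-960). KYSE-520, KYSE-450 and KYSE-960 lay close together and KYSE-890 stood above them, with a range over the 4 lines of 0.85 log2. Across all 2775 pairs of the 75 features, the median range was 2.12 log2 and the lower quartile 1.25, and 11.7% of the pairs had a smaller range than miR-191 with miR-425. After subtraction of the array medians the ratio was 0.99, 0.80, 1.97 and 1.16 in the same lines, and after quantile normalization 0.82, 0.74, 2.19 and 1.52, with KYSE-890 highest each time. Quantile normalization raised the share of pairs with a smaller range to 28.9%. Since the probes differ, the ratio itself does not say which of the 2 microRNAs was the more abundant, and its change between lines rests on single arrays.

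Likeness of pattern was measured as the root mean square difference, over the 4 arrays, of log2 deposited values centred on each feature's own mean, where the median against the other 74 features was 0.57 for miR-191 and 0.62 for miR-425. The features closest to miR-191 were MIMAT0000617 (0.17), MIMAT0002816 (0.20) and MIMAT0007888 (0.23), and those closest to miR-425 were MIMAT0000092 (0.13), MIMAT0002816 (0.18) and MIMAT0000318 (0.20). The files and reference tables do not pair these accessions with names. miR-425 and miR-191 differed from each other by 0.33, which gave miR-425 rank 13 of 74 for miR-191 and miR-191 rank 10 of 74 for miR-425. With quantile-normalized values they differed by 0.59 and had ranks 28 and 33. The named neighbours depended on the scaling: 0 of the 3 closest to miR-191 and 1 of the 3 closest to miR-425 were then the same. MIMAT0002816, with intensities of 772 (KYSE-520), 785.5 (KYSE-450), 543.5 (KYSE-890) and 520.0 (KYSE-960), was among the 3 closest to both guides in the deposited values.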

How the data were processed

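Values in the deposited table are linear scanner intensities, a single one for each feature on each array. Per the labels' protocols, RNA was extracted with guanidinium thiocyanate and phenol-chloroform, hybridized for 16 h at 32 °C and read on a ProScanArray scanner. How the authors handled background, replicate spots and scaling is not stated in the sources used here. All values were multiples of 0.5 and none was 0 or below.

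Quantile normalization was run with limma 3.58.1 (R 4.3.3), values under the array median were raised to it, features under it on all 4 arrays were dropped (713 of 856 remained) and log2 was taken. The dim-side spread was the median minus the 16th percentile. A 2-fold difference was the call, and the star arms, below background on all arrays, got no fold. Counts and shares over all features keep those below background, so they are not the shares among features above background on all arrays. With 1 array per line, their number limits the precision.

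The members, lists and rules were chosen with earlier results of these data known. The rule for named features was the 4 members and, for each one above background on all arrays, the 3 features most like it. Member names come from the accessions used to select them, and sequences and positions from RefSeq (GRCh38.p14), where 3 of 4 members matched by name and 0 accessions could be looked up. Planned lists of reference microRNAs, of chromosome 3p microRNAs and of cell type markers, and the count of hairpins with both arms measured, were therefore not run, so the labelled cell type was not checked.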

Additional observations from a re-analysis of the deposited data

How the results depend on the processing

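No paired analysis was made, since each line had 1 array and the labels give nothing that pairs the lines. Causes of the changes were not tested. Scaling by listed reference microRNAs was not run, since accessions could not be named. The guides' differences were called in 120 alternatives, at 2-fold or, in the setting that moved only the threshold, at 4-fold. Of these, 95 kept their call, 9 lost it, 1 gained it in the same direction and 15 turned sign with the call made before or after. Settings that changed only the floor, the filter or the threshold left the guides' quantile-normalized values as they were. Of the 95, 4 also turned sign, all of miR-425: to 0.74 in KYSE-520 over KYSE-890 and 0.96 in KYSE-450 over KYSE-960 in the deposited values, and to 0.58 and 0.55 in KYSE-450 over KYSE-890 and KYSE-960 with shared medians equal.

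The pairs KYSE-520 over KYSE-890, KYSE-520 over KYSE-960, KYSE-450 over KYSE-890 and KYSE-450 over KYSE-960 are taken in that order. In the deposited values miR-191 differed by 0.030, 0.61, 0.19 and 0.77 log2 and miR-425 by 0.66 in the second and 1.04 in the third, and 0 guides passed 2-fold except in the third. With array medians subtracted miR-191 differed by 0.022, 0.69, 0.22 and 0.89 and miR-425 by 1.0, 0.85, 1.39 and 1.25, and 0 guides passed in the second. With shared medians equal, miR-191 differed by -0.84, -0.21, -0.27 and 0.36 and miR-425 by -0.16 in the second, and 0 passed in each. With shared 75th percentiles equal, miR-191 differed by -0.77 in the last and miR-425 by -1.08 in the first, where 2 passed, and 0 passed in the last. Of all features kept in that setting, 634 passed in the first pair and 643 in the last, so the 2 calls are not particular to the guides. At 4-fold, miR-191 at -1.81, -1.57 and -1.24 in all but the first and miR-425 at -1.10 in the second no longer passed, leaving 0 guides in those pairs.

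Counts of all features past 2-fold, 20 for KYSE-520 over KYSE-450, 85, 87, 77 and 80 for those 4 pairs and 36 for KYSE-890 over KYSE-960, became 101, 168, 166, 127, 123 and 76 with array medians subtracted, and 4, 37, 27, 30, 15 and 3 at 4-fold. The floor and the number of features kept differed between some settings, so the counts are not shares of one common total. The 4 middle pairs had 634, 641, 630 and 643 with 75th percentiles equal, which multiplies the background too. KYSE-520 over KYSE-450 had 36 in the deposited values and 10 with a value at or above the array median required on all arrays. KYSE-890 over KYSE-960 had 12 in the deposited values, 14 with shared medians equal, 12 with 75th percentiles equal and 22 with the background threshold as floor, and KYSE-520 over KYSE-890 had 171 with shared medians equal. With quantile-normalized values, 0 of the 3 features most like miR-191 and 1 of the 3 most like miR-425 were the same.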
